A study of Mus musculus with 6 samples.

Results

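The genes described here are *Il7r*, *Kit*, *Cd200r1*, *Cd7*, *Emb*, *Ltb*, *Inpp4b*, *Tmem176a*, *Tmem176b* and *Rora*, taken by name as genes associated with immature NK cells and type 1 innate lymphoid cells (ILC1s). They are 10 of the 25690 gene symbols measured, and all 10 were among the 15474 genes with enough counts to be tested, the smallest value being 72 estimated counts for *Cd200r1* in 1 library. The question was whether loss of the transcription factor Myc changed their level in the earliest NK cells of the BM. RNA was sequenced from sorted CD27 single-positive NK cells, which carry NK1.1 and CD27, do not yet carry CD11b and were gated free of CD3. The control mice were *Ncr1cre Myc* wt/wt and the Myc-deficient mice *Ncr1cre Myc* fl/fl, with 3 libraries per genotype, numbered 1, 2 and 4. Both genotypes carried the Cre recombinase in the *Ncr1* locus on a C57BL/6 background, and the study used young adult mice matched for sex and age. Cre is made only once a cell transcribes *Ncr1*, the gene of the receptor NKp46, so that a cell caught early can hold Myc made before the deletion.

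NK cells and ILC1s are related lymphocytes that both carry NK1.1 and NKp46. An NK cell begins as a BM precursor that depends on cytokine receptors shared with other lymphoid precursors, and loses several of these as it takes up CD11b and the cytotoxic programme. ILC1s mostly reside in tissues and keep part of the early receptor set, so that both populations share markers that mature NK cells lack.

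*Myc* itself stood at 200.5, 183.4 and 164.3 CPM (counts scaled to library size with TMM factors) in wt/wt libraries 1, 2 and 4, and at 61.5, 64.6 and 76.5 CPM in fl/fl libraries 1, 2 and 4. The log2 fold change was −1.44 ± 0.15 (SE; edgeR quasi-likelihood test, adjusted p = 0.00189), and *Myc* reads were left in every fl/fl library. The 9 NK cell markers, led by *Nkg7* and *Il2rb*, summed to 12873 to 13826 CPM in wt/wt and 14522 to 16013 CPM in fl/fl, and none passed the threshold. Library wt/wt 1 held 8101219 estimated counts against 54550907 to 64962491 in the other 5. The 11 mature NK markers summed to 6186 CPM in fl/fl 4 and to 3299 and 3347 CPM in fl/fl 1 and 2, mostly through *Gzmb* and *Prf1*. *Klrg1*, *Prdm1*, *Gzma*, *Serpinb9* and *Itgam* were also higher in fl/fl 4 than in the other fl/fl libraries, while *S1pr5*, *Zeb2* and *Cx3cr1* were lower there. Genes of other cell types were higher in fl/fl: 8 of 9 tested basophil and mast cell markers, 5 of 6 granulocyte-monocyte progenitor markers and 2 of 7 haematopoietic progenitor markers rose, *Gata2* being on the first and the last list. Of the lists for neutrophils, monocytes and dendritic cells, plasmacytoid dendritic cells and erythroid cells, 1 of 8, 4 of 10, 2 of 6 and 2 of 8 tested genes rose, and of that for T cells 0 of 10. At an unadjusted p below 0.05 (edgeR), 7 of 8, 7 of 10, 4 of 6 and 8 of 8 genes of the first 4 of these lists were higher and 0 lower, and of the T cell list 4 were higher and 1 lower. Over all tested genes 1.28% rose past the threshold, and 12.4% were higher and 10.2% lower at the unadjusted limit. In sorted bulk RNA, a change in the share of some cells and a change in the RNA made per cell cannot be told apart.

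Of the 10 genes, *Inpp4b* and *Kit* rose in the Myc-deficient cells past the threshold (edgeR quasi-likelihood test, an adjusted p below 0.01 together with a log2 difference of 0.5 or more in either direction), each by more than 2-fold. None fell. Over all tested genes, 1.28% passed upwards, 0.872% downwards and 2.15% in either direction. For 4 of the 10, *Inpp4b*, *Kit*, *Cd7* and *Rora*, every fl/fl library lay above every wt/wt library, as was the case for 16.2% of all genes. Without adjustment, p was below 0.05 for 6 of the 10 and, over all genes, for 12.4% in the higher and 10.2% in the lower direction. The remaining 6 overlapped between genotypes. Fitted differences were above 0 for 10 of 10 genes, with 51.5% of all genes above 0, and their median was 0.59 on the log2 scale beside 0.014 over all genes. That median was 0.39 without wt/wt 1 (no replicate block) and 0.42 to 0.88 with each replicate number left out. These genes were chosen with earlier results of the same libraries known, so the counts are a description.

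**Figure D1:**
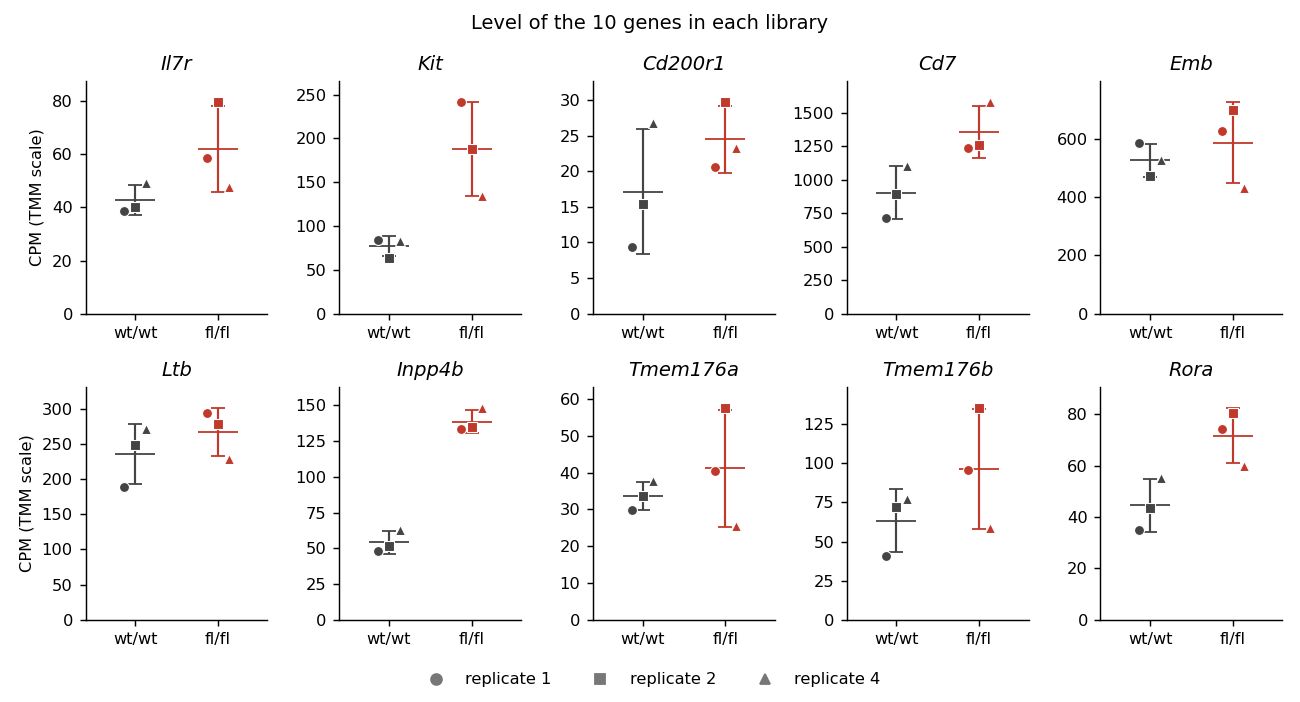
Level of each gene in CPM (TMM scale, linear axis from 0) in the 3 wt/wt (grey) and 3 fl/fl (red) libraries, with a symbol per replicate number and a horizontal line with bars for the mean ± SD. The red points lie clear of the grey ones for Kit, Cd7, Inpp4b and Rora, and replicate 4 of fl/fl is the lowest red point in 7 of the 10 panels.

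Compared per length, *Cd7* was by far the most abundant, with 1503 ± 369 TPM (counts scaled to transcript length and library size; SD, n = 3) in wt/wt and 2426 ± 320 in fl/fl. *Ltb* followed with 406 ± 93.4 TPM in wt/wt and *Emb* with 258 ± 17.5 TPM, and the ranges of these 3 genes did not touch. *Tmem176b* (89.0 ± 25.9 TPM), *Tmem176a* (54.5 ± 10.2) and *Inpp4b* (49.3 ± 13.1) came next in wt/wt, each overlapping its neighbour in that order. *Rora* (21.8 ± 4.88 TPM), *Kit* (21.0 ± 2.26), *Il7r* (18.7 ± 1.15) and *Cd200r1* (12.2 ± 6.68) closed the order, again with neighbours that overlapped. In fl/fl, *Inpp4b* reached 139.7 ± 2.11 TPM and lay close to *Tmem176b* at 138.3 ± 52.4 TPM, while *Kit* at 54.4 ± 15.7 TPM was above *Rora* at 37.7 ± 5.54 TPM.

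*Kit* encodes the receptor tyrosine kinase for stem cell factor, which haematopoietic progenitors and mast cells also carry, and lies at chr5:75574916-75656722 on the plus strand (GRCm38). It measured 84.3, 63.6 and 83.4 CPM in wt/wt 1, 2 and 4, and 241.1, 188.4 and 134.3 CPM in fl/fl 1, 2 and 4. The lowest fl/fl library was thus above the highest wt/wt library. On the log2 scale it rose by 1.26 ± 0.19 (SE; edgeR, adjusted p = 0.00559), a 2.39-fold rise with a 95% interval from 1.79 to 3.19. The adjusted p rose to 0.0293 without both libraries numbered 1 and to 0.0193 without those numbered 2, with log2 fold changes of 1.13 and 1.11. Without wt/wt 1 and without the replicate block it was 0.0187, with a log2 fold change of 1.34. With library size alone in place of TMM it was 0.0144.

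The summed levels of progenitor and of basophil markers were also higher in every fl/fl library. The 7 haematopoietic progenitor markers summed to 25.2, 27.6 and 33.5 CPM in wt/wt 1, 2 and 4 and to 113.1, 117.1 and 74.7 CPM in fl/fl 1, 2 and 4. For each of these 7 every fl/fl library was above every wt/wt library, as for 16.2% of all genes. Each was higher at an unadjusted p below 0.05 (edgeR), as were 12.4% of all genes. The median log2 fold change of the 7 was 1.74. Of them 2 passed, *Gata2* and *Cd34*, the surface marker of early progenitors, which rose by 1.86 ± 0.26 (log2, SE; edgeR, adjusted p = 0.00462). The 11 basophil and mast cell markers summed to 15.1, 18.6 and 17.9 CPM in wt/wt and to 277.3, 334.7 and 122.0 CPM in fl/fl, where *Prss34* and *Mcpt8*, basophil proteases, were the most abundant. Of the mast cell tryptases, *Tpsab1* was at 0 in all 6 libraries and *Tpsb2* in 5 of them. As with *Kit*, fl/fl 4 was the lowest fl/fl library in both sums, but the highest was fl/fl 2 and not, as for *Kit*, fl/fl 1. The 6 granulocyte-monocyte progenitor markers stood at 82.5, 104.6 and 125.4 CPM in wt/wt and 554.4, 522.1 and 878.5 CPM in fl/fl, here with fl/fl 4 the highest. The part of these cells in the *Kit* result was not tested.

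Besides 6 retained-intron transcripts, which summed to 1.09 to 7.03 CPM per library, *Kit* counts fell on 2 coding transcripts. They differ in a 12-base stretch of coding sequence at the end of exon 9 of 21, at chr5:75639147-75639158 (coding bases 1538 to 1549), which adds 4 codons to the extracellular part next to the membrane. Both junctions are shown with 24 bases on each side, the stretch found in Kit-201 alone being in capitals.
Kit-201: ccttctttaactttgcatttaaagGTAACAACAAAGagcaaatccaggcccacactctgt
Kit-204: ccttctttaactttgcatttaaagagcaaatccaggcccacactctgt
The first ends its coding sequence after 2937 bases and the second after 2925 bases, and Kit-204 is annotated to start 39 bases further upstream. Kit-201, with the stretch, measured 17.4, 22.8 and 19.3 CPM in wt/wt 1, 2 and 4, and 75.5, 79.3 and 50.7 CPM in fl/fl 1, 2 and 4. Kit-204, without it, measured 65.2, 39.7 and 57.1 CPM in wt/wt and 159.6, 102.5 and 80.6 CPM in fl/fl. Both were higher in every fl/fl library, with ratios of the means of 3.46 and 2.12. Kit-201 made up 27.6% ± 8.0 (SD, n = 3) of the pair in wt/wt and 38.1% ± 5.8 in fl/fl, and these shares overlapped between genotypes (two-sided p = 0.2 by exact permutation). Reads of 100 bases tell the transcripts apart only where they cross this junction or the differing start, so the split is an estimate of the quantification.

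*Inpp4b* encodes a phosphatase that removes a phosphate from lipid products of PI3K and so acts against PI3K signalling. The gene spans chr8:81342556-82127914 on the plus strand. Its level was 48.1, 51.5 and 63.0 CPM in wt/wt 1, 2 and 4, and 133.3, 134.9 and 148.0 CPM in fl/fl 1, 2 and 4. The gap between the genotypes was wider than the range within either, and here fl/fl 4 was the highest library. *Inpp4b* rose by 1.36 ± 0.14 on the log2 scale (SE; edgeR, adjusted p = 0.00154), which is 2.57-fold with a 95% interval from 2.09 to 3.17. Only with offsets from effective transcript lengths did *Inpp4b* miss the threshold among the alternatives run, at 1.46 on the log2 scale with an adjusted p = 0.0107 (edgeR). *Kit* missed it there too, at 1.26 with an adjusted p = 0.0179.

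The annotation holds 15 *Inpp4b* transcripts, of which 5 start at the upstream end of the gene and 10 start inside it. The upstream group, including the coding transcript Inpp4b-212 of 25 exons, measured 7.94, 7.31 and 6.05 CPM in wt/wt 1, 2 and 4, and 31.0, 22.8 and 30.0 CPM in fl/fl 1, 2 and 4. The internal group, mostly the coding transcript Inpp4b-208, measured 40.1, 44.2 and 56.9 CPM in wt/wt and 102.3, 112.2 and 118.0 CPM in fl/fl. Both groups were higher in every fl/fl library, the means differing 3.93-fold and 2.35-fold. The upstream group took 13.4% ± 3.5 (SD, n = 3) of the gene's counts in wt/wt and 20.1% ± 3.2 in fl/fl, without overlap. A two-sided exact permutation test of these shares gave p = 0.1, and 3 libraries against 3 can give no smaller value. TPM values of *Inpp4b* lean on short transcripts. Inpp4b-213, of 412 bases, held 17.2 ± 6.55 TPM in wt/wt and 36.6 ± 4.55 TPM in fl/fl, and Inpp4b-204, of 358 bases, held 3.36 to 13.3 TPM in wt/wt and 41.6 to 46.7 TPM in fl/fl. 3 other annotated genes overlap *Inpp4b*, *4930579O11Rik* and *Gm17169* on the opposite strand and *Gm17072* on the same strand. Where they coincide, the first ones cannot be separated from *Inpp4b* without strand, and *Gm17072* could not be separated by strand at all.

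**Figure D2:**
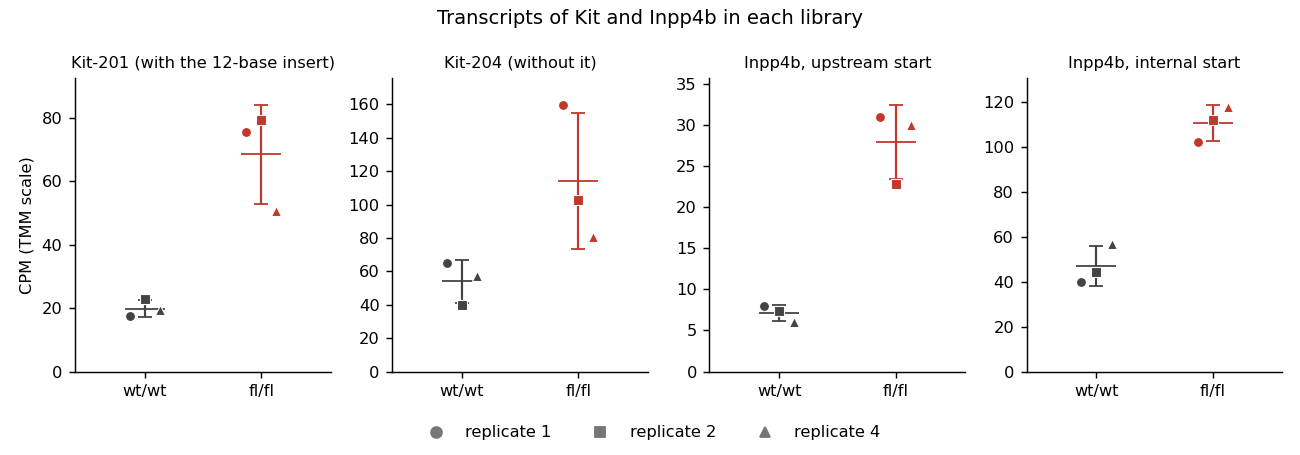
Summed CPM (TMM scale, linear axes from 0) of the 2 main Kit transcripts and of the Inpp4b transcripts grouped by where they start, per library, with the mean ± SD as line and bars. In all 4 panels the fl/fl libraries (red) lie above the wt/wt libraries (grey), and the ratio of the means is 3.46, 2.12, 3.93 and 2.35 from left to right.

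Since both rising genes had transcripts from their upstream start, the 250 bases before the RefSeq start site are shown (GRCm38.p6). For *Inpp4b* they are chr8:81342312-81342561 on the plus strand, with the T-box half-site letters TCACAC, found on the minus strand 49 bases before the start, in capitals. For *Kit* they are chr5:75574737-75574986 on the plus strand, with no match to any of the 5 motifs searched. The annotated starts of Kit-204 and Kit-201, 75574916 and 75574955, lie within this window, so its last bases are part of these transcripts.
Inpp4b: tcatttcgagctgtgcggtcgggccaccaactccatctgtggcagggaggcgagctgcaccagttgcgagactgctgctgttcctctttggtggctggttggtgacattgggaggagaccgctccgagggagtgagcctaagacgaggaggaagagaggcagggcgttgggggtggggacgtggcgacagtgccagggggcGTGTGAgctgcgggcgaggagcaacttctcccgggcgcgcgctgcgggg
Kit: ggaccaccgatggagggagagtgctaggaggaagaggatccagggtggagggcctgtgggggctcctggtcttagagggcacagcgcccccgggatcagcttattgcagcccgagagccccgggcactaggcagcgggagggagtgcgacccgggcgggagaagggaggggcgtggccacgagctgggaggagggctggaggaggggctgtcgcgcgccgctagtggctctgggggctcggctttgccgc
The table of RefSeq promoters matched 8 of the 10 genes, with 12 windows in all. On both strands, the E-box CACGTG, the sequence bound by Myc with its partner Max, was in none of the 12 windows and in 6.02% of all 32851 windows of this length. TCACAC was also in the windows of *Emb*, *Il7r* and 1 alternative start each of *Tmem176a* and *Tmem176b*, whose windows overlap and hold the same match. Over all windows the share was 12.3%. Neither the ROR half-site AGGTCA (14.02% of all windows) nor the GATA motif AGATAA (9.99%) was in any of the 12.

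*Il7r* encodes the α-chain of the IL-7 receptor, which pairs with the common γ-chain for IL-7 and with the product of *Crlf2* for TSLP. It measured 38.7, 40.2 and 49.2 CPM in wt/wt 1, 2 and 4, and 58.7, 79.6 and 47.7 CPM in fl/fl 1, 2 and 4. Libraries fl/fl 1 and 2 were above all wt/wt libraries and fl/fl 4 was within their range. The log2 fold change of 0.51 ± 0.19 (SE; 95% interval 0.08 to 0.95) did not pass, with an edgeR adjusted p of 0.149. It was 0.28 without the libraries numbered 2 and 0.78 without those numbered 4 (edgeR, adjusted p = 0.534 and 0.0435). Of its partners, *Il2rg*, the common γ-chain, was at 1638 to 1681 CPM in wt/wt and 1904 to 2277 CPM in fl/fl, with a log2 difference of 0.32 ± 0.13 (SE; edgeR, adjusted p = 0.194), and 0 of 7 tested partners passed. At an unadjusted p below 0.05 (edgeR), 4 of these 7 were higher and 0 lower, beside 12.4% higher and 10.2% lower over all genes.

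*Cd7* encodes an immunoglobulin-family receptor of T cells, NK cells and their precursors. It measured 713.0, 892.0 and 1106 CPM in wt/wt 1, 2 and 4, and 1235, 1257 and 1580 CPM in fl/fl 1, 2 and 4. The genotypes did not overlap, but wt/wt 4 and fl/fl 1 lay close. Its log2 fold change was 0.60 ± 0.14 (SE; 95% interval 0.29 to 0.91; edgeR, adjusted p = 0.0294), short of the threshold of 0.01, whereas DESeq2 gave 0.60 with an adjusted p of 0.000659. Of 3 genes for CD7 ligands only *Lgals1*, galectin-1, was abundant enough to test, and its difference of −0.22 (log2) did not pass. *Gm11775* overlaps *Cd7* on the opposite strand, and the libraries do not mark strand.

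*Cd200r1*, an inhibitory receptor for CD200, was the least abundant of the 10 genes. Its values were 9.35, 15.4 and 26.7 CPM in wt/wt 1, 2 and 4, and 20.5, 29.7 and 23.3 CPM in fl/fl 1, 2 and 4. The genotypes overlapped, and the wt/wt libraries alone spread across most of the range. On the log2 scale the genotypes differed by 0.61 ± 0.26 (SE; 95% interval 0.03 to 1.19; edgeR, adjusted p = 0.202), which did not pass. It was 0.20 without wt/wt 1 (no replicate block), and 1.02 without both libraries numbered 4 (adjusted p = 0.0333). *Cd200r4*, a related activating receptor, stood at 67.9 to 79.9 CPM in wt/wt and 64.8 to 76.5 CPM in fl/fl. *Cd200r3*, known from basophils and mast cells and also on their marker list, rose from 0.14 to 0.32 CPM in wt/wt to 1.54 to 5.16 CPM in fl/fl (log2 fold change 3.58 ± 0.61, SE; edgeR, adjusted p = 0.00879) and was the 1 of 7 tested CD200 receptor partners to pass. The family members resemble each other in sequence, so reads could be split among them.

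*Emb* encodes embigin, a membrane glycoprotein that accompanies monocarboxylate transporters to the cell surface. It measured 585.4, 472.1 and 526.9 CPM in wt/wt 1, 2 and 4, and 629.3, 701.8 and 432.6 CPM in fl/fl 1, 2 and 4. The fl/fl libraries lay on both sides of the wt/wt range, and the log2 fold change of 0.13 ± 0.17 (SE; 95% interval −0.25 to 0.51) did not pass, with an edgeR adjusted p of 0.729. Of its 5 partners, *Slc16a1*, the transporter of lactate and pyruvate MCT1, fell from 48.9 to 60.8 CPM in wt/wt to 22.8 to 30.1 CPM in fl/fl. Its log2 fold change was −1.10 ± 0.17 (SE; edgeR, adjusted p = 0.00677), and the other 4 did not pass.

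*Ltb* encodes lymphotoxin β, which anchors lymphotoxin α at the cell surface as the ligand of the lymphotoxin β receptor. It measured 188.3, 247.8 and 271.4 CPM in wt/wt 1, 2 and 4, and 293.4, 278.1 and 228.5 CPM in fl/fl 1, 2 and 4. The highest values were those of fl/fl 1 and 2, while fl/fl 4 was within the wt/wt range. For *Ltb* as a whole the log2 fold change was 0.18 ± 0.17 (SE; 95% interval −0.21 to 0.57; edgeR, adjusted p = 0.604). Ltb-201 held 56.5% ± 7.3 (SD, n = 3) of its counts in wt/wt and 64.3% ± 2.6 in fl/fl, with no overlap (two-sided p = 0.1 by exact permutation, again the lowest possible). The separation was small, with 61.4% in wt/wt 4 and 62.05% in fl/fl 4, and the lowest share, 48.1%, was that of the shallow library wt/wt 1.

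Of the 8 lymphotoxin partners, 6 were higher and 0 lower at an unadjusted p below 0.05 (edgeR). Over all genes the shares were 12.4% higher and 10.2% lower. The median log2 fold change of these partners was 0.71, beside 0.014 over all genes. *Tnf* rose from 11.2, 14.1 and 17.0 CPM in wt/wt 1, 2 and 4 to 26.9, 37.4 and 39.3 CPM in fl/fl 1, 2 and 4 (log2 fold change 1.30 ± 0.17, SE; edgeR, adjusted p = 0.00348) and was the 1 partner to pass. *Lta*, the partner subunit, was at 3.77, 4.63 and 3.63 CPM in wt/wt and 8.22, 10.4 and 7.22 CPM in fl/fl, also without overlap, and did not pass (1.09 ± 0.24, SE; edgeR, adjusted p = 0.0256).

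*Tmem176a* and *Tmem176b* encode related membrane proteins of the MS4A-like group, described in dendritic cells and in lymphoid cells that use RORγt. The genes lie head to head and overlap, *Tmem176a* at chr6:48840919-48847071 on the plus strand and *Tmem176b* at chr6:48833818-48841496 on the minus strand, so reads in the shared stretch cannot be assigned by strand. RefSeq gives several starts. From the *Tmem176a* start at 48841483, the 3 *Tmem176b* starts are 495, 346 and 109 bases away, with 6, 155 and 108 bases shared between the windows. The 250 bases before the *Tmem176a* start, chr6:48841233-48841482 on the plus strand, are shown because 155 of them also belong to the window of the *Tmem176b* start at 48841137, with the TCF motif ATCAAAG in capitals in that shared stretch.
Tmem176a: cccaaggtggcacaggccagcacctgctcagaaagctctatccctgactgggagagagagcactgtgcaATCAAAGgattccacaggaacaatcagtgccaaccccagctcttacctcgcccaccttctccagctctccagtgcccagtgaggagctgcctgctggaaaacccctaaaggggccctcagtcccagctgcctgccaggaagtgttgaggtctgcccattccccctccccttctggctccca
This motif was in 3.21% of all windows and, among the other genes, in that of *Emb*. *Tmem176a* measured 29.8, 33.5 and 37.6 CPM in wt/wt 1, 2 and 4, and 40.4, 57.4 and 25.5 CPM in fl/fl 1, 2 and 4. *Tmem176b* measured 40.5, 72.4 and 77.4 CPM in wt/wt and 96.0, 135.1 and 58.6 CPM in fl/fl. For both, fl/fl 1 and 2 exceeded all wt/wt libraries and fl/fl 4 did not, being the lowest of all 6 for *Tmem176a*. Log2 fold changes were 0.22 ± 0.24 (SE; edgeR, adjusted p = 0.658) and 0.58 ± 0.27 (adjusted p = 0.241), with 95% intervals from −0.31 to 0.75 and from −0.02 to 1.17. Without the libraries numbered 4, *Tmem176b* passed, its log2 difference being 1.05 (edgeR, adjusted p = 0.00822), but without fl/fl 4 alone and with no replicate block it did not (0.86, adjusted p = 0.0973). The difference was 0.25 without both libraries numbered 1 and 0.35 without wt/wt 1 alone and with no block (edgeR, adjusted p = 0.693 and 0.503). Of 6 MS4A relatives 0 passed, and 1 was higher and 0 lower when p below 0.05 was taken unadjusted (edgeR). The shares over all genes were 12.4% and 10.2%.

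*Rora* encodes the nuclear receptor RORα, needed for ILC2 development and active in the circadian clock. It measured 34.8, 43.4 and 55.3 CPM in wt/wt 1, 2 and 4, and 74.4, 80.7 and 60.0 CPM in fl/fl 1, 2 and 4. The genotypes were separate, though by little between wt/wt 4 and fl/fl 4. *Rora* did not pass, with a log2 fold change of 0.69 ± 0.19 (SE; 95% interval 0.27 to 1.12; edgeR, adjusted p = 0.0573). Rora-202, which starts inside the gene, held 84.1% ± 2.9 (SD, n = 3) of the counts in wt/wt and 85.4% ± 2.6 in fl/fl. *Bhlhe40*, a clock repressor, rose by 1.23 ± 0.18 (log2, SE; edgeR, adjusted p = 0.00514) and was the 1 of 7 ROR and clock partners to pass. Markers of ILC2s were low, summing to 8.83 to 19.2 CPM in wt/wt and 21.9 to 25.5 CPM in fl/fl. None of the 5 tested passed, with 4 higher and 0 lower at an unadjusted p below 0.05 (edgeR). Over all genes 12.4% were higher and 10.2% lower. Of the type 2 cytokine genes, *Il5* was above 0 in 1 of the 6 libraries and *Il13* in 3, both at no more than 0.071 CPM, and *Il4*, on the basophil list, was at 0 to 0.12 CPM in wt/wt and 0.37 to 0.56 CPM in fl/fl. ILC3 markers summed to at most 2.85 CPM in any library, with *Il22* and *Il17a* at 0 throughout. The part of such cells in the *Rora* values was not tested.

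**Figure D3:**
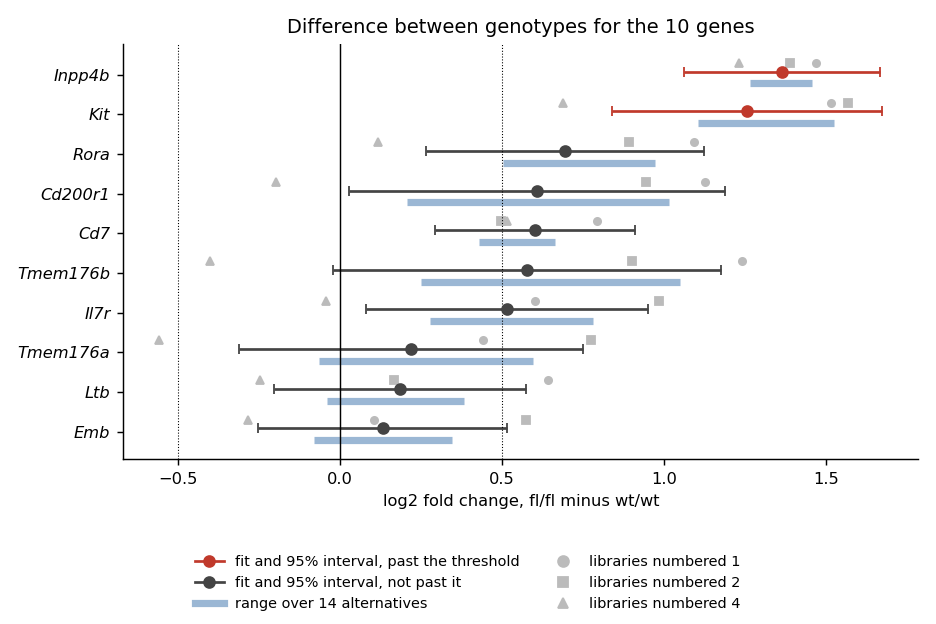
Log2 fold change (fl/fl minus wt/wt) of each gene, with the edgeR estimate and its 95% interval (red where past the threshold), the range over 14 alternative settings (blue bar) and the log2 ratio of each pair of libraries with the same number (grey symbols). Dotted lines mark the fold change limit of 0.5 in either direction. Inpp4b and Kit are farthest to the right, and the grey triangle of the libraries numbered 4 lies left of 0 for 6 genes.

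Library wt/wt 1, the shallowest, was the lowest wt/wt library and wt/wt 4 the highest for the same 8 genes, all but *Emb* and *Kit*. Among the fl/fl libraries, number 4 was the lowest for 7 genes and the highest for *Inpp4b* and *Cd7*, while number 2 was the highest for 6. In fl/fl 4, *Gzmb* and *Prf1*, cytotoxic effector genes, stood at 1488 and 1988 CPM, against 357.9 to 472.2 and 846.4 to 891.4 CPM in the other fl/fl libraries. Of the same marker list, *Klrg1* was at 37.1 CPM there, against 7.93 and 7.85 CPM in fl/fl 1 and 2. *Prdm1*, *Gzma*, *Serpinb9* and *Itgam* were also highest among the fl/fl libraries in fl/fl 4. By contrast, *S1pr5*, *Zeb2* and *Cx3cr1* were lowest among the fl/fl libraries there, at 9.68, 42.9 and 3.62 CPM. The part of these differences in the lower values of the 7 genes was not tested. With fl/fl 4 left out and no replicate block, *Inpp4b* and *Kit* both passed, at 1.31 and 1.49 on the log2 scale (edgeR, adjusted p = 0.00394 for each).

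Among the remaining partner lists, 0 of 7 KIT partners and 0 of 8 phosphoinositide phosphatase and kinase partners passed. At an unadjusted p below 0.05, 2 of the 7 KIT partners and 5 of the 8 phosphoinositide genes were higher and none lower, where the shares over all genes were 12.4% higher and 10.2% lower. The list median was 0.37 and 0.39 on the log2 scale, beside 0.014 over all genes. *Pik3cd*, the PI3K catalytic subunit of leukocytes, and *Inpp5d*, the phosphatase SHIP1, whose lipid product is the substrate of INPP4B, were higher in every fl/fl library without passing, by 0.50 ± 0.14 and 0.48 ± 0.14 (log2, SE; edgeR, adjusted p = 0.0554 and 0.0599).

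**Figure D4:**
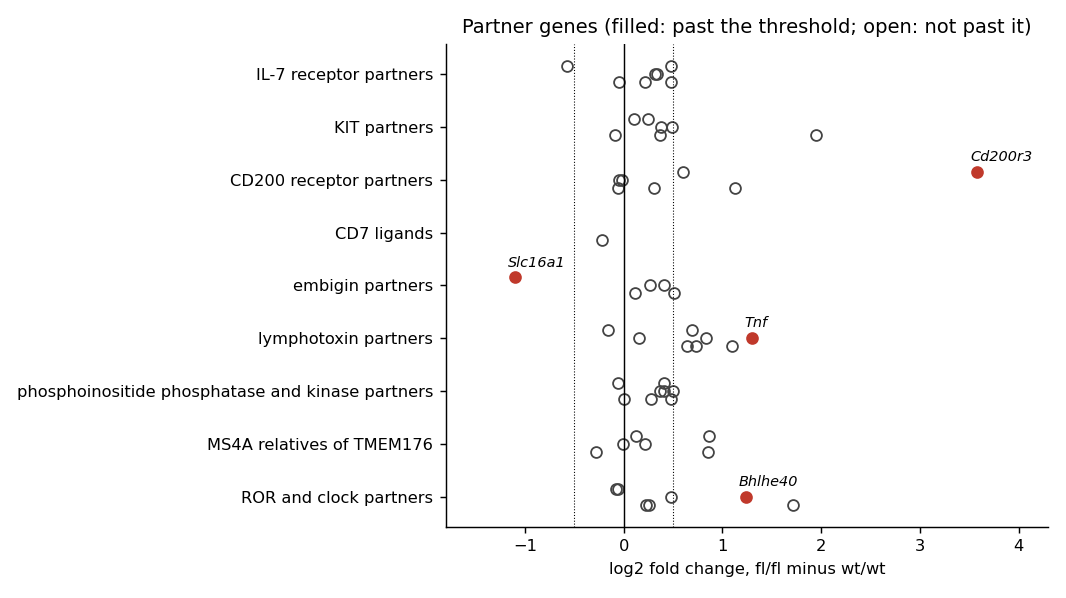
Log2 fold change (fl/fl minus wt/wt) of each tested partner gene, grouped by the gene they partner, with filled points past the threshold and open points not past it (vertical offsets within a list only separate points). Only Slc16a1, Cd200r3, Tnf and Bhlhe40 are filled, and all but Slc16a1 lie to the right of 0.

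The lists of markers that the 10 genes are named for showed no gene past the threshold in either direction. Of 11 ILC1 markers 0 passed, with 2 higher and 1 lower at an unadjusted p below 0.05, and the median log2 fold change was 0.20. Their sum was 1015 to 1281 CPM in wt/wt and 1324 to 1454 CPM in fl/fl, led by *Cxcr3* and *Xcl1*, which NK cells also express. Among the defining ILC1 genes, *Itga1* (CD49a) was at 13.5 to 19.0 CPM in wt/wt and at 12.9, 9.88 and 65.6 CPM in fl/fl 1, 2 and 4, and *Zfp683* (Hobit) was at 2.47 to 4.78 and 3.64 to 5.16 CPM. Of 10 immature NK markers, 2 of them also on the ILC1 list, 0 passed, with 2 higher and 0 lower at an unadjusted p below 0.05 and a median of 0.15. Of 11 mature NK markers, *Ly6c2* rose and *S1pr5*, the receptor for egress from the BM, fell (0.83 and −1.18 on the log2 scale, edgeR adjusted p = 0.00756 and 0.0054), though *S1pr5* overlapped between genotypes. In that list 4 were higher and 2 lower by an unadjusted p below 0.05, and the median was 0.08. Of 7 ILC precursor genes 0 passed, with 4 higher and 0 lower at an unadjusted p below 0.05 and a median of 0.51. For all these lists, the shares over all genes at this unadjusted limit (edgeR) were 12.4% higher and 10.2% lower.

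**Figure D5:**
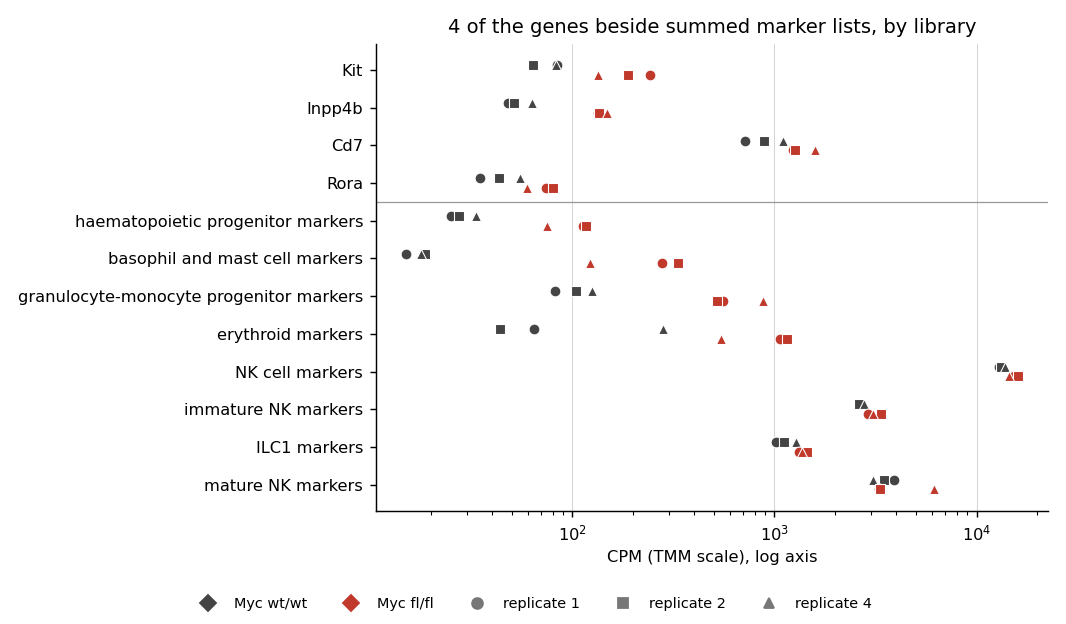
CPM (TMM scale, log axis) of the 4 genes whose genotypes did not overlap, above the line, and summed CPM of 8 marker lists, below it, in each wt/wt (grey) and fl/fl (red) library. The haematopoietic progenitor, basophil and mast cell, and erythroid sums are shifted to the right in all fl/fl libraries and least in replicate 4. The granulocyte-monocyte progenitor sum is also shifted in all fl/fl libraries, but most in replicate 4, at 878.5 CPM. The mature NK sum of fl/fl 4, 6186 CPM, is the highest of the 6.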

How the data were processed

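Libraries of CD27 single-positive BM NK cells were compared, 3 from *Ncr1cre Myc* wt/wt controls and 3 from *Ncr1cre Myc* fl/fl mice. The authors made libraries with SMART-Seq v4 and Nextera XT, which do not mark strand, sequenced them single end, and deposited per transcript an estimated count, which is not normalized, a TPM value and an effective length. The submitters' notes and the methods name Salmon and GRCh38, but the transcripts are of mouse and the columns have kallisto's form. Which correction the effective lengths hold is not given in the sources used here.

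Estimated counts were summed per symbol by GENCODE M21 (GRCm38; 100239 of 100583 transcripts matched, leaving 0.129% to 0.169% of counts out), rounded, filtered by filterByExpr and tested by edgeR's quasi-likelihood test (4.0.16, R 4.3.3) with TMM and the replicate number as a block, as the study calls its analysis paired. P-values were adjusted by Benjamini-Hochberg over 15474 genes. A gene passed with an adjusted p below 0.01 and a log2 difference of 0.5 or more in either direction. Nothing in the labels says that the libraries of a genotype came from separate mice, and p-values then measure only the spread between these libraries, which may be technical. Libraries of 1 genotype differed by more than counting noise.

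Totals were 8101219 to 64962491 estimated counts per library. CPM is on the TMM scale, and TPM, the deposited value, was used to compare genes. Transcript shares come from the same estimated counts and were compared by a two-sided exact permutation test, with no adjustment, which cannot reach 0.05 with 3 libraries against 3. The fit was tested on simulated data.

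The members and all lists were chosen with earlier results of these data known. The text names the 10 genes, partners past the threshold, *Il2rg*, *Lta*, *Cd200r3* and *Cd200r4*, and of marker lists at most the 2 most abundant genes and 3 past the threshold. *Lgals1*, *Pik3cd*, *Inpp5d*, *Itga1*, *Zfp683*, *Gzmb*, *Klrg1*, *Prdm1*, *Serpinb9*, *Itgam*, *Zeb2*, *Cx3cr1*, *Il5*, *Il13*, *Il4*, *Il22*, *Il17a*, *Tpsb2*, *Tpsab1* and the transcripts were named after their values were seen. Promoters are from RefSeq (GRCm38.p6) and *Kit* sequence from GENCODE M21. Alternatives were no block, each replicate left out, wt/wt 1 left out with no block, DESeq2 (1.42.0), limma-trend (3.58.1, prior count 3), the largest adjusted p of the 3 tools, library size only, effective length offsets, no filter, at least 10 counts in every library, and an adjusted p below 0.05 without a fold limit. Leaving out fl/fl 4 with no block was chosen after seeing the data. 1 marker list is not reported here.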

Additional observations from a re-analysis of the deposited data

How the results depend on the processing

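Of the 10 genes, 2 were higher past the threshold. This count was 1 with library size only, where *Kit* missed, 0 with effective length offsets, and 1 to 3 when libraries were left out, where *Kit* missed without replicate 1, without replicate 2 or without wt/wt 1 (no block), and *Tmem176b* was added without replicate 4. *Cd7* was added by DESeq2, without a filter on low counts and at an adjusted p below 0.05. No gene was lower past the threshold under any of the 14 alternatives. The log2 fold change of *Inpp4b* ranged from 1.26 to 1.46 and that of *Kit* from 1.11 to 1.52. With each replicate number left out in turn, *Ltb* ranged from −0.042 (without replicate 1) to 0.38, *Tmem176a* from −0.066 (without replicate 2) to 0.60 and *Emb* from −0.081 (without replicate 2) to 0.32, and *Cd200r1* from 0.37 to 1.02. The causes were not tested.

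Without the replicate block the count of genes was again 2, with log2 fold changes of 1.35 for *Inpp4b* and 1.29 for *Kit* (edgeR, adjusted p = 0.00118 and 0.00626), and 203 genes were higher and 184 lower over the whole table. Deviations of same-numbered libraries correlated at −0.011, −0.015 and 0.043 for replicates 1, 2 and 4, all below 0.1, which leaves a pairing of mice by number unshown. The 198 higher and 135 lower genes of the whole table became 49 and 25 with library size only, 24 and 8 with effective length offsets, 642 and 529 with DESeq2, 524 and 378 without a filter and 689 and 523 at an adjusted p below 0.05, and 49 to 162 and 10 to 114 with each replicate number left out. Against the 203 and 184 without the block, there were 113 and 130 without wt/wt 1 and 116 and 70 without fl/fl 4. With 3 libraries per genotype, 1 of them shallow, the 95% intervals of the genes that did not pass ran from that of *Cd7* (0.29 to 0.91), the narrowest, to that of *Tmem176b* (−0.02 to 1.17), the widest.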
